A study of Mus musculus with 4 samples.

Results

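The 10 genes described here encode the 3 mouse PIWI proteins and 7 proteins that make, load or finish their small RNA guides, and their rows were taken by gene symbol from a deposited table of read counts that lists 50763 genes. The rows were Piwil1, Piwil2, Piwil4, Ddx4, Mov10l1, Asz1, Pld6, Gtsf1, Mael and Henmt1, and all 10 were found. Polyadenylated RNA came from cells purified from mouse testis and labelled as pachytene spermatocytes. There were 2 libraries of Hsf5 knockdown mice and 2 libraries of wild-type (WT) mice. Hsf5 encodes a heat shock factor of the testis. The labels call the replicates biological but give neither the age or number of animals nor the means of the knockdown, so each p-value rests on the spread of the libraries, which may be technical. The comparison asks how transcripts differ between Hsf5 knockdown and WT libraries that carry this label. Cell type markers differed between the groups, as given below, so the groups are not taken to hold the same cells.

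piRNAs are small RNAs of the animal germ line that are bound by PIWI proteins and guide them to transposon and other transcripts. In the mouse the pathway runs in separate waves. In fetal germ cells PIWIL2 (MILI) and PIWIL4 load piRNAs against transposons, and PIWIL4 enters the nucleus, where the pathway directs DNA methylation of transposon copies. From the pachytene stage, PIWIL2 and PIWIL1 (MIWI) load abundant piRNAs from dedicated genes that the transcription factor A-MYB, the product of Mybl1, switches on. The helicase, mitochondrial and end-trimming factors serve several waves, and only Piwil4 is a fetal nuclear factor and only Piwil1 a pachytene PIWI gene among these 10.

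Promoter sequences of the genes that carry the results are given first, since members of the pathway are known targets of A-MYB. Each is the 300 bases from 250 before to 50 after the annotated start, 5′ to 3′ on the gene's strand, from RefSeq on GRCm38.p6, an older build than the mm39 of the counts. Capitals mark matches, on either strand, to the MYB sites TAACGG and CAACTG or the E-box CACGTG; the heat shock element GAANNTTC was searched too. Piwil1, Mael and Henmt1 were lower in the knockdown and Mov10l1 was higher.
Piwil1 (chr5:128735996-128736295, + strand): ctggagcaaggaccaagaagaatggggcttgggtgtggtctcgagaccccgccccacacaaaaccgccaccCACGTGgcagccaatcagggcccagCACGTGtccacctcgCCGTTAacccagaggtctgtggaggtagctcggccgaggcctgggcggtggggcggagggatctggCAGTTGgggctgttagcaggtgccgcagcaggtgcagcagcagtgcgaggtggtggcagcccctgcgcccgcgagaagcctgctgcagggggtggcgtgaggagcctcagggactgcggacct
Mael (chr1:166238695-166238994, - strand): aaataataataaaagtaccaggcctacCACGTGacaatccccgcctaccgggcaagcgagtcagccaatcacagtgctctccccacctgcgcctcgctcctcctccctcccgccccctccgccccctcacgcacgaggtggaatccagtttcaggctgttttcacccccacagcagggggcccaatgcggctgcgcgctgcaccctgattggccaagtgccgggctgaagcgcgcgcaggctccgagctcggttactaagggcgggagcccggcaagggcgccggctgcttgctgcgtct
Henmt1 (chr3:108940307-108940606, + strand): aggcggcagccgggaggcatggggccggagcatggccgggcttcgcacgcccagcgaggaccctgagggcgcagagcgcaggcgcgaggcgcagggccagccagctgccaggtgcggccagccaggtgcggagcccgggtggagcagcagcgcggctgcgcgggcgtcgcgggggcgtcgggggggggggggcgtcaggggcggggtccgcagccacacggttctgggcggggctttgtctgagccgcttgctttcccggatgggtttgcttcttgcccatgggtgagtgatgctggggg
Mov10l1 (chr15:88982744-88983043, + strand): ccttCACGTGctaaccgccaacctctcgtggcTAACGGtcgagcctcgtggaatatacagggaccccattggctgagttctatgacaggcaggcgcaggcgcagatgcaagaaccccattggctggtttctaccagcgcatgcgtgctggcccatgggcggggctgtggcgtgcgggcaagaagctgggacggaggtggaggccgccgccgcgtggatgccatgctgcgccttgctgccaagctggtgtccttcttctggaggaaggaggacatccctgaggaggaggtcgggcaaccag
Of the 10 genes, 9 matched a promoter entry, with 11 promoters in all, and Piwil2 is named only. TAACGG stood in 2 of the 11 promoters, those of Piwil1 and Mov10l1, and in 2.76% of all 32851 promoters. CAACTG stood in 1 of the 11, that of Piwil1, and in 13.7% of all. CACGTG stood in 5 of the 11, those of Piwil1, Mael, Mov10l1, Ddx4 and a promoter of Pld6, and in 7.15% of all. GAANNTTC stood in 0 of the 11 and in 7.86% of all. The promoters of Piwil1 and Mov10l1 both held TAACGG and CACGTG, and that of Piwil1 also held CAACTG and a further CACGTG. Henmt1 had none of these letters in its window. Among promoters of tested genes, CACGTG stood in 8.54%, TAACGG in 3.43% and GAANNTTC in 6.71%. The medians of all promoters were 52.7% GC and 7 CpG (C followed by G). The 5 promoters with CACGTG had 62.3% to 72% GC and 18 to 38 CpG. TAACGG and CACGTG each hold a CpG, and the shares were not matched for base composition. These matches are descriptions of letters, not of binding.

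Across the 4 libraries, 33287428 to 42479164 reads were counted per library, and values are given as CPM (counts scaled to the size of the library and by edgeR's TMM factors). Hsf5 itself stood at 287 and 238 CPM in the knockdown libraries and 586 and 449 CPM in the WT libraries (log2 fold change -0.98, SE 0.31; edgeR quasi-likelihood test, adjusted p = 0.0217), a call that was lost with library totals as the only scaling (-0.55; edgeR, adjusted p = 0.115), without WT replicate 1 (-0.79, SE 0.53; edgeR, adjusted p = 0.219) and without WT replicate 2 (-1.13, SE 0.55; edgeR, adjusted p = 0.0725). With a WT library left out, the spread comes from the knockdown pair, and the lone WT library is assumed to vary likewise. Marker genes were read for the labelled cell type. The summed level of 10 mid and late pachytene markers was 942 and 603 CPM in the knockdown, against 9736 and 8026 CPM in WT, with 9 of 10 lower. That of 10 spermatid markers was 19.9 and 11.3 CPM in the knockdown, against 3873 and 1912 CPM in WT, with 10 of 10 lower and no read for 3 of them (Prm2, Smcp and Cylc2) in the knockdown. Summed synaptonemal complex and cohesin genes stood at 3203 and 2350 CPM in the knockdown and 3107 and 2785 CPM in WT, but the 13 genes were not level one by one, with 5 higher, 1 lower, 7 not past the test and a median log2 fold change of 0.87. Of 13 spermatogonia markers 10 were higher, with sums of 916 and 827 CPM in the knockdown and 192 and 184 CPM in WT. Of 9 leptotene and zygotene markers 7 were higher, with sums of 1322 and 924 CPM in the knockdown and 764 and 708 CPM in WT. In that list Spo11 was lower, at 59.6 and 54.8 CPM in the knockdown and 177 and 126 CPM in WT, and Meioc did not pass. All 10 Sertoli cell markers were higher, with sums of 3733 and 4339 CPM in the knockdown and 159 and 414 CPM in WT, as were all 7 Leydig cell markers, with sums of 1408 and 2861 CPM in the knockdown and 116 and 793 CPM in WT. Peritubular markers summed to 93.6 and 23.0 CPM in the knockdown and 2.92 and 5.77 CPM in WT (3 of the 3 tested higher), and blood and immune markers to 116 and 41.4 CPM in the knockdown and 8.55 and 9.63 CPM in WT (5 of 6 higher). The part of these cell mixtures in the results below was not tested, and in bulk RNA fewer cells of a type and less RNA per cell cannot be told apart.

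The piRNA machinery did not move as a block. Of the 10 genes, all 10 passed the filter on low counts, 3 rose (Piwil4, Mov10l1 and Piwil2), 5 fell (Henmt1, Gtsf1, Mael, Piwil1 and Pld6) and 2 did not pass the test (Ddx4 and Asz1). A gene was called at an adjusted p below 0.05 in edgeR's quasi-likelihood test over 23594 genes. By that rule 60.9% of all tested genes were called, 27.4% higher and 33.5% lower, so a call by itself does not set a gene apart in this comparison. The groups did not overlap for 9 of the 10, against 82.7% of all tested genes. The median log2 fold change of the 10 was -1.03, against -0.12 for all tested genes. With the libraries set level on 13 genes of the synaptonemal complex and cohesin instead (axis scaling), 2 members rose and 6 fell. The summed level of the 10 genes was 3724 and 2923 CPM in the knockdown and 4992 and 5401 CPM in WT.

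**Figure D1:**
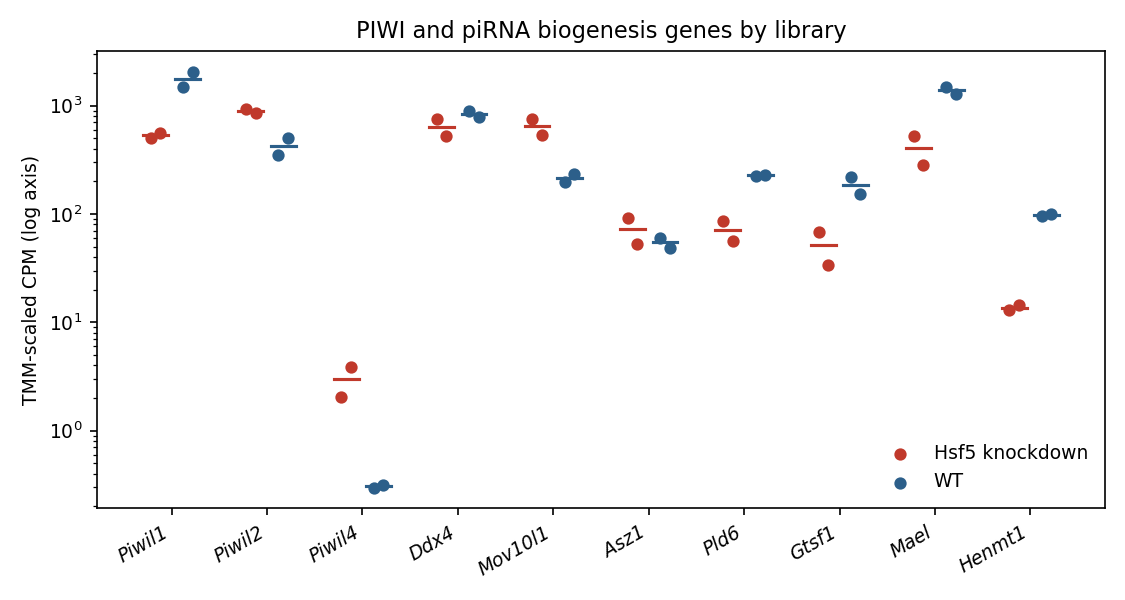
TMM-scaled CPM (log axis) of the 10 genes in each library, 2 Hsf5 knockdown libraries (red, left) and 2 WT libraries (blue, right), with a bar at each mean. Piwil4 is the lowest in both groups, and Asz1 is the gene whose groups overlap.

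Among the PIWI genes, the pachytene member fell and the other two rose. Piwil1 had 507 and 558 CPM in the knockdown libraries, against 1475 and 2063 CPM in the WT libraries. The groups stood clear of each other, and the 3.32-fold higher WT level corresponds to a log2 fold change of -1.73 (SE 0.35; edgeR, adjusted p = 0.00238). Piwil1 stayed among the abundant transcripts, above 99.4% of tested genes in knockdown replicate 1 and above 99.8% in WT replicate 1.

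Piwil2 encodes the PIWI protein that acts in both fetal and pachytene cells. It had 936 and 857 CPM in the knockdown, against 349 and 505 CPM in WT. The knockdown libraries were the higher ones and close to each other, whereas the WT libraries were farther apart. Its log2 fold change was 1.07 (SE 0.33; edgeR, adjusted p = 0.0194), 2.10-fold. The call was lost without WT replicate 1 (0.81; edgeR, adjusted p = 0.258), without WT replicate 2 (1.39; edgeR, adjusted p = 0.058) and under axis scaling (0.59; edgeR, adjusted p = 0.268).

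Piwil4, the fetal PIWI gene that is also known from spermatogonia, stood by CPM above 41.8% and 47.6% of tested genes in the knockdown libraries and above 9.78% and 9.38% in the WT libraries. It had 96 and 161 reads in the knockdown libraries and 10 and 9 reads in the WT libraries. That is 2.03 CPM (95% counting interval 1.65 to 2.48) and 3.90 CPM (3.32 to 4.55) in the knockdown, against 0.298 CPM (0.143 to 0.548) and 0.313 CPM (0.143 to 0.594) in WT, where exact Poisson intervals cover counting error only. The knockdown libraries differed from each other beyond counting error but both lay above WT, a log2 fold change of 3.27 (SE 0.71; edgeR, adjusted p = 0.00344). The annotation holds an antisense gene, Gm10706, across 14417 bases of Piwil4. Whether counting used strand is not given in the sources, so reads of the pair could not be told apart. Gm10706 was listed with 0 and 4 reads in the knockdown and 0 and 0 reads in WT. If strand was not used, those counts do not show how many reads over Piwil4 were antisense.

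Because levels of different genes compare only per length, the PIWI genes were set side by side as CPM per kb of their longest annotated transcript (GENCODE M21). In the knockdown, Piwil1 made up 39.8% and 44.2% of the PIWI total, against 83.8% and 83.3% in WT. Piwil2 made up 60.0% and 55.4% in the knockdown and 16.2% and 16.7% in WT. Piwil4 made up 0.194% and 0.376% in the knockdown and 0.0206% and 0.0154% in WT. The more abundant PIWI transcript was thus Piwil2 in both knockdown libraries and Piwil1 in both WT libraries.

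The ratio of Piwil1 to Piwil2 reads within a library does not depend on how libraries are scaled to each other. It was 0.542 and 0.651 in the knockdown, against 4.23 and 4.09 in WT. On the log2 scale the ratio averaged -0.75 ± 0.19 in the knockdown and 2.06 ± 0.036 in WT (SD, n = 2 each), a difference of -2.81, with a two-sided exact permutation p = 0.333, the smallest that 2 against 2 libraries can give. The difference ran from -2.94 to -2.68 when each library was left out in turn. Of the other 8 genes read against Piwil2 in the same way, 7 had groups that did not overlap. By CPM the groups did not overlap for 82.7% of all tested genes, and the share for ratios to Piwil2 was not computed. Piwil2 was itself higher in the knockdown, which lowers each ratio there. The ratio differed most for Henmt1 (0.0138 and 0.0169 in the knockdown, 0.272 and 0.197 in WT), and the groups overlapped for Asz1 (0.0975 and 0.0613 in the knockdown, 0.173 and 0.0964 in WT). Mov10l1 and Piwil4 gained on Piwil2, with differences of 0.47 and 2.11 on the log2 scale, and the mean ratio of each other gene was lower in the knockdown.

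**Figure D2:**
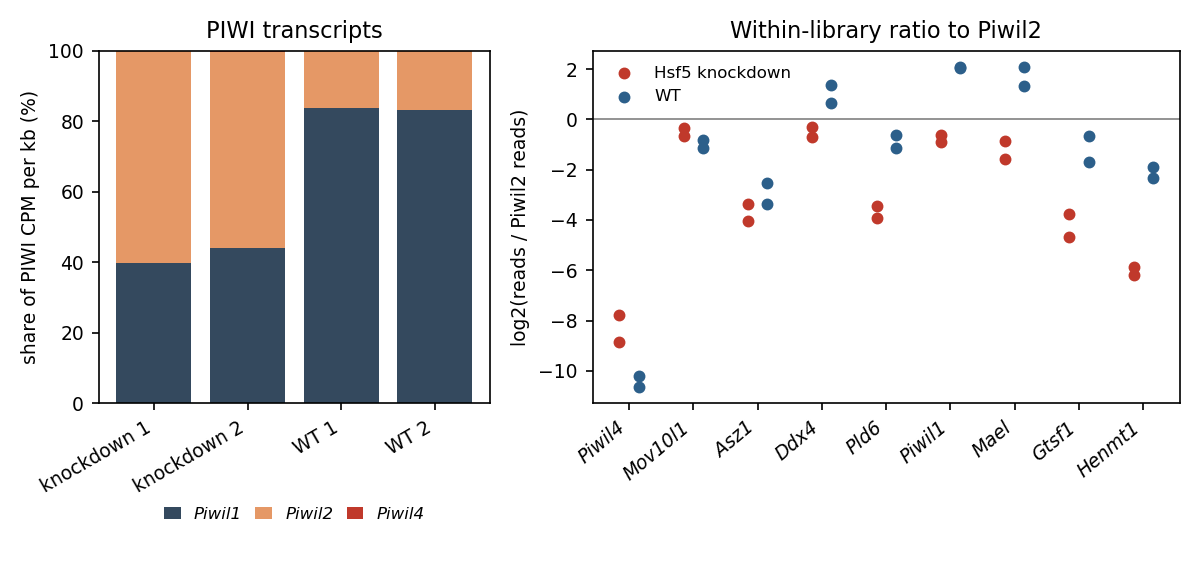
Left, share (%) of the 3 PIWI genes in their summed CPM per kb, one bar per library. Right, log2 ratio of each gene's reads to Piwil2 reads within each library, with knockdown points red and WT points blue; Piwil1 lies below 0 in the knockdown and above 0 in WT.

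Of the RNA helicase genes, Mov10l1 rose and Ddx4 did not pass. Mov10l1 encodes the helicase that binds long piRNA precursors and is needed for all pre-pachytene and pachytene piRNAs. It had 746 and 541 CPM in the knockdown, against 198 and 232 CPM in WT. Every knockdown value was above every WT value, with a log2 fold change of 1.58 (SE 0.32; edgeR, adjusted p = 0.00248). Its level ranked above 99.7% of tested genes in knockdown replicate 1 and above 93.9% in WT replicate 1.

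Ddx4, the germ cell helicase VASA that marks germ cells and sits in germ granules, had 752 and 522 CPM in the knockdown, against 888 and 788 CPM in WT. The knockdown libraries were lower, but by less than the test required (log2 fold change -0.39, SE 0.33; edgeR, adjusted p = 0.329). Its direction turned with library totals as the only scaling (0.033; edgeR, adjusted p = 0.927), and it passed as lower under axis scaling (-0.88; edgeR, adjusted p = 0.047).

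Both genes of the mitochondrial surface, where piRNA precursors are cut, had WT libraries close together and knockdown libraries farther apart. Pld6 encodes the nuclease that makes the 5′ ends of piRNA intermediates. It had 86.6 and 55.8 CPM in the knockdown, against 224 and 229 CPM in WT. The groups were well apart, with a log2 fold change of -1.67 (SE 0.32; edgeR, adjusted p = 0.00176).

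Asz1 encodes GASZ, a scaffold of the germ granule material between mitochondria. It had 91.2 and 52.5 CPM in the knockdown, against 60.5 and 48.7 CPM in WT. Knockdown replicate 2 fell within the WT range, and the difference did not pass (log2 fold change 0.40, SE 0.34; edgeR, adjusted p = 0.341). The value was 0.023 without knockdown replicate 1 (edgeR, adjusted p = 0.965), 0.75 without knockdown replicate 2 (edgeR, adjusted p = 0.0767), 0.82 with library totals only (edgeR, adjusted p = 0.0531) and -0.11 under axis scaling (edgeR, adjusted p = 0.826).

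The remaining partners all fell. Gtsf1, a small zinc finger protein that helps PIWI proteins cut their targets, had 68.7 and 33.8 CPM in the knockdown, against 218 and 154 CPM in WT. Both groups were spread but did not overlap (log2 fold change -1.86, SE 0.39; edgeR, adjusted p = 0.00279). Mael encodes Maelstrom, a germ granule protein needed for transposon silencing, and had 521 and 284 CPM in the knockdown, against 1485 and 1282 CPM in WT. Its fall was of similar size to that of Piwil1 (log2 fold change -1.78, SE 0.39; edgeR, adjusted p = 0.00334).

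Henmt1 encodes the methyltransferase that protects the 3′ ends of finished piRNAs. It had 12.9 and 14.5 CPM in the knockdown, against 94.9 and 99.3 CPM in WT. Replicates of each group nearly coincided. The fall, 7.10-fold, was the deepest of the 10 genes (log2 fold change -2.83, SE 0.31; edgeR, adjusted p = 0.000105), and the same gene held that place under each of the 12 alternatives, with values from -3.25 to -2.39.

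Read by stage, the class that serves fetal and later cells was itself split. Of its 8 genes 2 rose (Piwil2 and Mov10l1), 4 fell (Mael, Pld6, Gtsf1 and Henmt1) and 2 did not pass (Ddx4 and Asz1), with a median log2 fold change of -1.03. Among all tested genes 27.4% were higher and 33.5% lower. The fetal nuclear gene Piwil4 rose and the pachytene gene Piwil1 fell, and each of these classes holds a single gene, so no test between the classes can be had. Mael, Gtsf1, Asz1, Pld6, Ddx4 and Mov10l1 were higher in knockdown replicate 1 than in replicate 2, by 0.46 to 1.02 on the log2 scale, whereas Piwil4 was lower in it by 0.94.

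**Figure D3:**
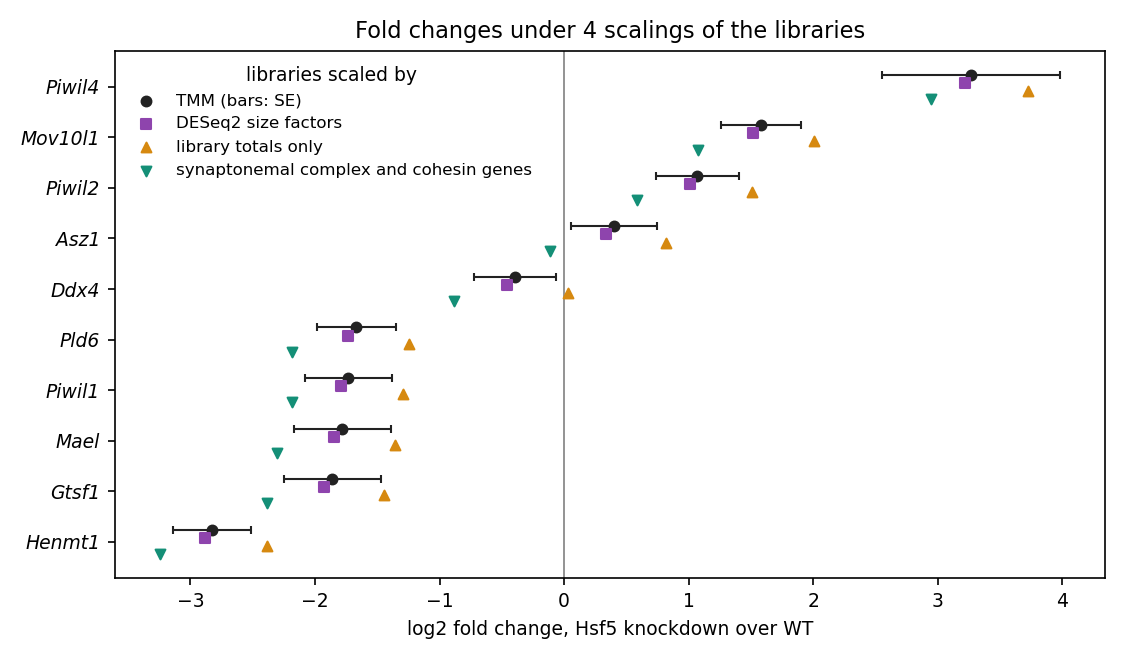
Log2 fold change, Hsf5 knockdown over WT, of the 10 genes under 4 scalings of the libraries, with the standard error (SE) drawn for the TMM fit. Ddx4 and Asz1 lie on both sides of 0, the other 8 on 1 side.

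The order of the genes by CPM per kb also differed between the groups. In the knockdown the order of means was Mael, Ddx4, Piwil2, Mov10l1 and Piwil1, at 238, 212, 182, 156 and 133 CPM per kb, and no neighbours in this run were separated, since their libraries overlapped. Gtsf1 came next and was separated from Piwil1, at 83.9 and 41.3 against 126 and 139 CPM per kb in the knockdown libraries. Gtsf1 overlapped with Pld6, and Pld6 with Asz1. Henmt1 at 6.84 ± 0.56 and Piwil4 at 0.898 ± 0.40 CPM per kb (SD, n = 2 each) followed, each separated from the gene above. In WT the order was Mael at 818 ± 84.9, Piwil1 at 441 ± 104, Ddx4 at 278 ± 23.5 and Gtsf1 at 227 ± 55.2 CPM per kb (SD, n = 2 each), followed by Pld6, Piwil2, Mov10l1, Henmt1, Asz1 and Piwil4. There the libraries of Ddx4 and Gtsf1 and those of Mov10l1 and Henmt1 overlapped, and the other neighbours were separated. Piwil2 held rank 3 in the knockdown and rank 6 in WT.

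Genes whose profile over the 4 libraries was most like that of a PIWI gene were found by the Euclidean distance between centred log2(CPM + 0.5) profiles. The search covered 10059 genes with a mean of at least 10 CPM and no predicted or clone name (Gm, Rik, LOC and the like). Closest to Piwil1 were Golga3 (distance 0.0781), Tspyl4 (0.0812) and Usp8 (0.0888). Golga3 had 118 and 137 CPM in the knockdown, against 351 and 471 CPM in WT. Closest to Piwil2 were Tmem201 (0.0527), Arl6ip5 (0.071) and Lonp2 (0.0742). Closest to Piwil4 were Kalrn (0.169), Tfcp2l1 (0.173) and Gata6 (0.185), and Gata6 had 14.0 and 26.6 CPM in the knockdown, against 3.90 and 4.80 CPM in WT. The 0.5 CPM added before the log exceeds the WT level of Piwil4 (0.298 and 0.313 CPM) and flattens its profile. Kalrn, Tfcp2l1 and Gata6 had log2 fold changes of 2.15 to 2.22, against 3.27 for Piwil4. With 2 groups of 2 libraries, such likeness mainly reflects the shared group difference.

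The 30 other genes of the pathway, listed by role, were divided as well. Of the 30, 6 rose, 13 fell and 11 did not pass, with a median log2 fold change of -0.60. The split was 10 higher and 9 lower with library totals only, and 3 higher and 14 lower under axis scaling. Among all tested genes 27.4% were higher and 33.5% lower in the main fit. These shares are also the background for each role list below, and no list was tested against them.

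Of 3 transcription factors of piRNA genes, 1 rose and 2 fell. Btbd18, a factor needed for elongation at a subset of pachytene piRNA genes, had 32.2 and 30.2 CPM in the knockdown, against 3.55 and 3.86 CPM in WT (edgeR, adjusted p = 0.000232). Tcfl5 had 211 and 136 CPM in the knockdown, against 648 and 642 CPM in WT (edgeR, adjusted p = 0.00121). Mybl1, which encodes A-MYB, had 85.0 and 82.9 CPM in the knockdown, against 153 and 177 CPM in WT (log2 fold change -0.97, SE 0.28; edgeR, adjusted p = 0.0136), a call lost with library totals only (-0.54; edgeR, adjusted p = 0.102), without WT replicate 1 (-1.09, SE 0.50; edgeR, adjusted p = 0.063) and without WT replicate 2 (-0.84, SE 0.50; edgeR, adjusted p = 0.152).

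For precursor processing at mitochondria 1 of 8 genes rose and 2 fell, with 5 not past the test and a median of -0.40. Tdrd1 and Tdrd12 also passed as lower with DESeq2 size factors (edgeR, adjusted p = 0.0468 and 0.0388) and after dropping genes that averaged under 1 CPM (0.0449 and 0.0408), Tdrd1 without knockdown replicate 2 (0.048) and Tdrd12 under axis scaling (0.0416). Gpat2 passed as higher with library totals only (edgeR, adjusted p = 0.0106) and without knockdown replicate 2 (0.0197). Fkbp6, a co-chaperone of piRNA loading, had 293 and 172 CPM in the knockdown, against 48.1 and 51.7 CPM in WT (edgeR, adjusted p = 0.000586). Tdrd5 had 192 and 170 CPM in the knockdown, against 457 and 478 CPM in WT (edgeR, adjusted p = 0.00317). Exd1 had 41.0 and 36.3 CPM in the knockdown, against 81.7 and 71.5 CPM in WT (edgeR, adjusted p = 0.0165), and lost its call with library totals only (adjusted p = 0.114) and without WT replicate 1 (0.122), WT replicate 2 (0.0583) or knockdown replicate 2 (0.0514), all in edgeR. Pnldc1, the trimmer of piRNA 3′ ends, and its partner Tdrkh did not pass, at 0.36 (SE 0.34) and -0.12 (SE 0.29) on the log2 scale.

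In the nuclear and fetal silencing arm 4 of 7 genes rose and 2 fell, with a median of 1.45. The remaining 1, Tdrd9, did not pass, but passed as higher with library totals only, at 0.98 (edgeR, adjusted p = 0.0126). Dnmt3a, a de novo DNA methyltransferase expressed widely outside the germ line too, had 65.1 and 82.1 CPM in the knockdown, against 5.45 and 7.89 CPM in WT (edgeR, adjusted p = 8.9e-05). Tex15, needed for transposon methylation in the male germ line, had 99.5 and 163 CPM in the knockdown, against 33.1 and 39.3 CPM in WT (edgeR, adjusted p = 0.00133). Dnmt3c, the rodent methyltransferase of young transposons, had 5.34 and 7.56 CPM in the knockdown, against 0.894 and 1.53 CPM in WT (edgeR, adjusted p = 0.00555). The calls of Tex15, Dnmt3c and Morc1 were lost under axis scaling (edgeR, adjusted p = 0.0563, 0.0619 and 0.136). Dnmt3l, the cofactor of de novo methylation in fetal germ cells, went against them at 0.889 and 0.97 CPM in the knockdown, against 6.59 and 3.79 CPM in WT (edgeR, adjusted p = 0.0055). Spocd1 was lower too, at 6.25 and 5.07 CPM in the knockdown, against 18.1 and 16.4 CPM in WT (log2 fold change -1.61, SE 0.41).

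Among 12 chromatoid body and pachytene effector genes 7 fell and none rose, with 5 not past the test and a median of -1.14. With library totals only, Elavl1 and Cnot7 passed as higher, at 0.98 and 0.79 (edgeR, adjusted p = 0.0105 and 0.0333). Under that scaling Fxr1 and Pabpc1 lost their calls as lower, at -0.64 and -0.77 (edgeR, adjusted p = 0.0915 and 0.0651). The deepest falls were of paralogues and germ granule genes. Gtsf1l, a paralogue of Gtsf1, had 2 reads in the knockdown group and 4673 in the WT group, a WT level 3317 times that of the knockdown (95% counting interval 918 to 27392). Both reads were in knockdown replicate 2, so the ratio was 1547 (428 to 12773) without knockdown replicate 1, and without knockdown replicate 2 the level was at least 1180-fold lower in the knockdown, with a floor of 3 reads over that library. Gtsf2, the other paralogue, had 0.932 and 0.339 CPM in the knockdown, against 60.0 and 23.2 CPM in WT (log2 fold change -6.01, SE 0.69; edgeR, adjusted p = 0.000128). Its value was -6.84 without knockdown replicate 1 and -5.19 without WT replicate 1. Gtsf1 itself, at 3.63-fold lower in the knockdown, kept reads in all libraries. Tdrd6, a Tudor scaffold of the chromatoid body, had 11.6 and 23.8 CPM in the knockdown, against 1502 and 1982 CPM in WT (log2 fold change -6.62, SE 0.51; edgeR, adjusted p = 1.6e-05). Its value was -7.23 without knockdown replicate 2 and -6.13 without knockdown replicate 1. Kif17, a kinesin, had 6.80 and 7.90 CPM in the knockdown, against 124 and 110 CPM in WT (edgeR, adjusted p = 2.2e-05). Spermatid markers, which were lower in 10 of 10 cases as given above, moved the same way.

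**Figure D4:**
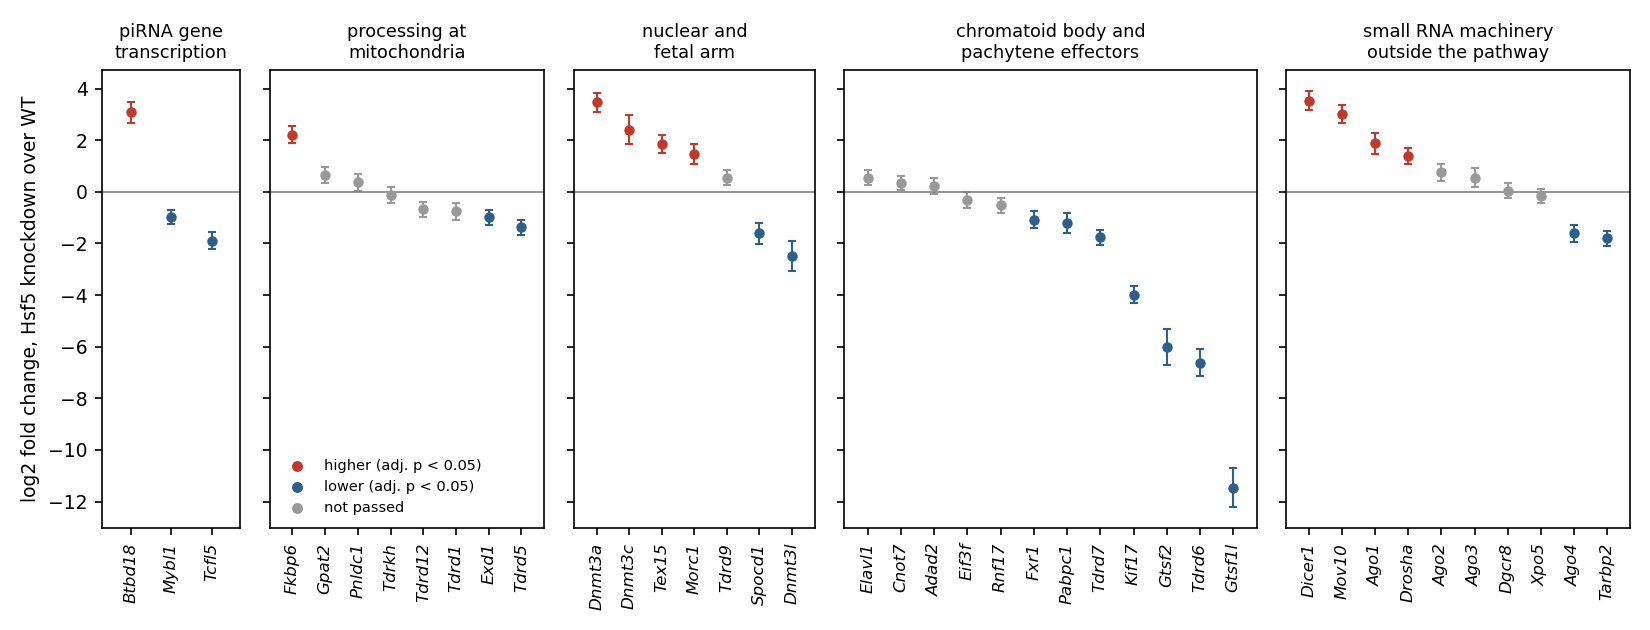
Log2 fold change, Hsf5 knockdown over WT, with standard error, of 30 other piRNA pathway genes in 4 role lists and of 10 small RNA genes outside the pathway. Red points passed as higher, blue as lower and grey did not pass; no red point stands among the 12 chromatoid body and pachytene effector genes.

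The microRNA and small interfering RNA machinery, whose Argonaute proteins are the closest relatives of PIWI proteins, was read in the same libraries, with no test of a difference from the piRNA genes. Among its 10 genes, 4 rose and 2 fell, the other 4 not passing, with a median of 0.66. Among all tested genes 27.4% were higher and 33.5% lower. Under axis scaling 2 rose and 2 fell, and with library totals only Ago2 also passed as higher, at 1.21 (edgeR, adjusted p = 0.0139). Dicer1, the nuclease that cuts microRNA precursors, had 142 and 173 CPM in the knockdown, against 9.93 and 17.2 CPM in WT (edgeR, adjusted p = 7.8e-05). Mov10, the broadly expressed paralogue of Mov10l1, had 62.2 and 86.1 CPM in the knockdown, against 8.29 and 10.1 CPM in WT (edgeR, adjusted p = 0.000149). Ago4, an Argonaute with a known role in mouse meiosis, fell to 26.4 and 40.1 CPM in the knockdown, against 83.7 and 119 CPM in WT (edgeR, adjusted p = 0.003), and the Dicer partner Tarbp2 had 94.7 and 80.0 CPM in the knockdown, against 320 and 289 CPM in WT (edgeR, adjusted p = 0.000787). Dicer1 and Mov10 are expressed in most somatic cells, and the somatic markers above were higher in the same libraries; their part in these rises was not tested.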

How the data were processed

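The deposited values are raw counts of reads for each gene in each library. The submitters' processing notes name build mm39, featureCounts 1.5.3, HISAT2 2.2.1, DESeq2 1.46.0 and Trim Galore 0.6.10, per the labels; which annotation, strand option and rule for reads with several matches applied is not given in these sources. Columns were matched to labels by name. edgeR 4.0.16 (R 4.3.3) tested the counts of 23594 of 36809 genes with a count (filterByExpr, TMM, quasi-likelihood F test, Benjamini-Hochberg adjustment over all tested genes, threshold 0.05). Depth was 33287428 to 42479164 counts per library. Standard errors are approximate, from the log2 fold change and its F statistic. No replicate pair matched within sampling noise (chi-square over its degrees of freedom was 93.8 in the knockdown and 44.1 in WT).

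Members and lists were chosen with earlier results of these data known. All 10 members are named, with up to 4 called genes of smallest p per list, and others after their values were seen. Of 14 synaptonemal complex and cohesin genes 13 matched. Transcript lengths are of GENCODE M21 (GRCm38), matched by symbol. The test was tested on simulated data. Alternatives were other scalings, filters, DESeq2 1.42.0, a replicate block, a minimum log2 fold change of 1, leaving out each library, and 10 added reads for the ratio of Piwil1 to Piwil2.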

Additional observations from a re-analysis of the deposited data

How the results depend on the processing

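The 3 rises and 5 falls among the 10 members held under 9 of 12 alternatives; without WT replicate 1 or 2 the rises numbered 2, and with the libraries set level on synaptonemal complex and cohesin genes (axis scaling) 2 rose and 6 fell. Piwil1, Piwil4, Mael, Mov10l1, Pld6, Gtsf1 and Henmt1 kept direction and call under all 12, with a largest adjusted p of 0.0406 (edgeR, Mov10l1, axis scaling). That scaling moved the all-gene median log2 fold change to -0.56, against -0.12, and gave 3325 higher genes against 6467, 3 higher genes of the wider pathway and 2 of the small RNA genes outside it. Library totals only moved that median to 0.31 and gave 10 higher genes of the wider pathway. Directions that turned, none of them called: Ddx4 (0.033), Tdrkh (0.31), Eif3f (0.11) and Xpo5 (0.27) with library totals only; Asz1 (-0.11), Pnldc1 (-0.078), Adad2 (-0.27), Cnot7 (-0.068) and Dgcr8 (-0.41) under axis scaling; Dgcr8 with DESeq2 size factors (-0.0073), a mean of at least 1 CPM (-0.0052) and without WT replicate 1; Xpo5 without WT replicate 2; Tdrkh without knockdown replicate 2. Leaving out each library in turn gave -0.11 to 0.23 for Dgcr8, -0.32 to 0.00073 for Xpo5 and -0.28 to 0.078 for Tdrkh. Calls not named above that were lost on leaving out a library (edgeR, adjusted p) were Fxr1 (0.202), Pabpc1 (0.102) and Drosha (0.0837) without WT replicate 1, Pabpc1 (0.0929) without WT replicate 2 and Spocd1 (0.0535) without knockdown replicate 2. The causes were not tested. The replicate number as a block left 3 members higher and 5 lower, and added calls for Gpat2 and Ago2 as higher and Tdrd1 and Tdrd12 as lower (edgeR, adjusted p = 0.0373, 0.00749, 0.0183 and 0.0182). The labels do not say whether libraries of the same number share a litter or day. Differences of replicate 1 from replicate 2 correlated between the groups over 23594 genes at Pearson's r = 0.32. That is a value over genes, which are not independent. At 9 and 10 reads in WT, depth limits the fold change of Piwil4.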
